A study of Homo sapiens with 6 samples.

Results

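The genes described here are 48 named chaperones, co-chaperones and transcription factors of the heat shock system of the cytosol and mitochondria, chosen by symbol from a table of 58735 human genes. They fall into 9 classes: the heat shock factors, the HSP70 and HSP110 family, HSP90, the HSP90 co-chaperones, the small heat shock proteins, the mitochondrial chaperonin, the BAG proteins, the HSP40 (J-domain) proteins and 6 subunits of the cytosolic chaperonin TRiC. The 48 symbols occupy 49 rows of the table, because HSPA14 has one row each for ENSG00000187522 and ENSG00000284024. Of these rows, 47 had a mean of at least 1 FPKM (fragments scaled to transcript length and library size) over all libraries and were tested, and HSPA6 and CRYAB were below that level.

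HSP70 proteins bind exposed hydrophobic stretches of unfolded polypeptides in cycles of ATP hydrolysis, J-domain proteins deliver clients and stimulate the ATPase, and BAG and HSP110 proteins release the nucleotide. HSP90 completes the folding of kinases and steroid receptors together with co-chaperones, and the ring-shaped chaperonins enclose single polypeptides in the cytosol (TRiC) and the mitochondrial matrix (HSPD1 with HSPE1). When unfolded proteins occupy the cytosolic chaperones, HSF1 is released, forms trimers and binds inverted repeats of the pentamer nGAAn in the promoters of many of these genes.

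The study compared 3 control libraries with 3 libraries of cells carrying a short hairpin RNA against HYOU1, the HSP110-type chaperone of the endoplasmic reticulum (ER), by sequencing of poly(A)-selected RNA. All 6 are labelled as Hep3B, an established human hepatoma line. The controls are labelled shControl and the knockdown libraries shHYOU1. The labels state neither the hairpin sequences or their number, nor a clone or pool, nor the time after introduction of the hairpin. They do not say that replicates were separate cultures, so the p-values rest on differences between libraries that may be only technical replicates.

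Recovered fragments per library ranged from 16893091 to 18233240. HYOU1 itself was at 37.6, 58.2 and 59.5 FPKM in the controls and at 2.35, 2.32 and 2.37 FPKM in the knockdown libraries. Control replicate 1 stood apart: its correlation with the other 2 controls across tested genes was 0.906 and 0.892, against 0.971 between those 2. The share of fragments on mitochondrially encoded genes was 7.59% in control replicate 1, 5.17% and 4.96% in the other controls, and 3.39% to 3.84% in the knockdown libraries, and the part of this difference in the results was not tested. Defining markers of the labelled cell type were largely absent: of 14 hepatocyte and hepatoma markers, 5 (ALB, APOB, APOH, TTR and GPC3) were at 0 in every library, AFP did not exceed 0.0343 FPKM, and HNF4A was the 1 marker with a mean of at least 1 FPKM. The 14 markers summed to between 4.13 and 4.98 FPKM in the controls and between 2.27 and 2.71 FPKM in the knockdown libraries. The identity of the cells thus rests on the label, which these values leave in doubt, and was not tested. In such bulk samples, a change in every cell and a change in the share of cells that express a gene cannot be told apart.

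Promoters of the best known heat shock genes show the element to which heat shock factors bind, and the stretches below carry it in the genes whose values the results turn on: HSPA1A, HSPA1B, HSPA8 and DNAJB1, which rose, and the HSP90 genes HSP90AA1 and HSP90AB1, which were not called. They are read 5′ to 3′ on the strand of the gene from RefSeq (GRCh38.p14). Capitals mark each match to 2 alternating pentamer cores, GAANNTTC or TTCNNGAA, or to 3 cores, which are GAANNTTC followed by NNGAA or, as its reverse complement, TTCNNGAA followed by NNTTC. HSPA1A lies at chr6:31815293-31815463 on the plus strand, HSPA1B at chr6:31827488-31827734 on the plus strand, and DNAJB1 at chr19:14518421-14518647 on the minus strand. The HSPA8 stretches lie at chr11:123062341-123062370 and chr11:123062166-123062195 on the minus strand, HSP90AA1 at chr14:102087104-102087133 on the minus strand, and HSP90AB1 at chr6:44247693-44247865 on the plus strand.
HSPA1A: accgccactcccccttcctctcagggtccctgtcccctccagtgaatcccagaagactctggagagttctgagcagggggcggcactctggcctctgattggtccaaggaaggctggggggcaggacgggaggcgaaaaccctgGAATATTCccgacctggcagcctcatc
HSPA1B: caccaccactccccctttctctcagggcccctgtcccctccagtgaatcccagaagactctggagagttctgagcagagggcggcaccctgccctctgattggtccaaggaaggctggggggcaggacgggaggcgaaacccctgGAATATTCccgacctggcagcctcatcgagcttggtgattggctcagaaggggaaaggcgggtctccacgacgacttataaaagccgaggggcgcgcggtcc
HSPA8, distal element: gcttGAAAGTTCCAGAAcgctgcggtgagt
HSPA8, proximal element: ccccTTCTGGAAGGTTCtaagatagggtat
DNAJB1: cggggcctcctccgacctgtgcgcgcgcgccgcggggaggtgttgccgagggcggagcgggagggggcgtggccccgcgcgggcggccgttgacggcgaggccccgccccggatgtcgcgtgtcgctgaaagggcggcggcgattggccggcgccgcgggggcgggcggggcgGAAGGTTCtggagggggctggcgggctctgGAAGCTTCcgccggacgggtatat
HSP90AA1: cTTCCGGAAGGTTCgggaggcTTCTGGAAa
HSP90AB1: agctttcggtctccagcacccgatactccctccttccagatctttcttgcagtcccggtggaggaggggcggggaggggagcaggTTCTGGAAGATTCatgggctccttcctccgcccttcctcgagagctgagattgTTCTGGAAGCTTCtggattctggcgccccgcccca
Before their start sites HSPA1A and HSPA1B were nearly the same, with 235 of 251 aligned positions identical (93.6%).

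RefSeq promoter windows of 300 bases, 250 before and 50 after a start, were at hand for 43 of the 48 symbols, and some genes had several. At least 1 match to the 3-core motif on either strand was found in 8 of the 43 genes (18.6%): CHORDC1, DNAJA1, DNAJB6, HSP90AA1, HSP90AB1, HSPA6, HSPA8 and HSPD1. Over all 27305 genes with a window, 166 had one (0.608%). The 2-core motif, which every 3-core match also contains, was found in 23 of the 43 genes (53.5%) and in 4417 of all 27305 (16.2%). Of the 7 genes that rose with the HYOU1 hairpin, 1 held the 3-core motif (HSPA8) and 5 the 2-core motif (HSPA1A, HSPA1B, HSPA8, DNAJA4 and DNAJB1), while BAG3 and FKBP5 held neither in these windows. Of the genes that fell, HSPB8 had a window and held the 2-core motif. Of the 34 tested genes with a window that were not called, 6 held the 3-core and 16 the 2-core motif. A match describes the letters only.

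With HYOU1 knocked down, 7 of the 47 tested rows rose: the stress-inducible HSP70 genes HSPA1A and HSPA1B, the constitutive HSP70 gene HSPA8, the J-domain genes DNAJB1 and DNAJA4, the HSP70 exchange factor gene BAG3 and the HSP90 co-chaperone gene FKBP5. The small heat shock protein gene HSPB8 and one of the 2 HSPA14 rows fell, and 38 rows were not called. A gene was called at an adjusted p under 0.05 in limma on log2(FPKM + 0.1), and all fold changes below are on that scale. Gene coordinates are those of GENCODE 29 on GRCh38. Of all 12448 tested genes, 6.6% rose and 5.66% fell under the same rule. The median log2 fold change of the 47 rows was 0.25, with 37 above 0, and the median over all tested genes was 0.04, with 52.7% above 0. Of the rows not called, 10 had an unadjusted p under 0.05. With the called rows included, 16 of the 47 were higher and 3 lower at that level. Of all 12448 tested genes, 3926 passed it in either direction. All knockdown libraries lay above all controls in 21 of the 47 rows and below them in 3. Among all tested genes the shares were 23.8% and 20.6%.

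These counts depended on single libraries. Without control replicate 1, 30 of the 47 rows rose and 3 fell, where 24.6% of all tested genes rose and 19.7% fell. After a correction of each library for GC content, 25 rose and 3 fell, against 20.4% and 20.2% of all genes. The 9 calls made with all 6 libraries were made again in the same direction under both of these settings, and 25 rows rose and 3 fell in both. With voom on fragments recovered from the FPKM, 8 rows rose and 2 fell, against 7.41% and 6.8% of all genes. None of the 47 rows was called by limma when any of the 3 knockdown libraries was left out. At an unadjusted p under 0.05, 9, 11 and 11 rows were then higher and 3, 2 and 2 lower. Of all 12448 tested genes, 2672, 2628 and 2533 passed that level in either direction. Few genes of the whole table were called in those settings either: 0.434%, 0.305% and 0.177% rose and 0.578%, 0.378% and 0.217% fell without knockdown replicates 1, 2 and 3. The log2 fold changes of HSPA1B then ranged from 1.28 to 1.38 and those of DNAJB1 from 0.75 to 0.77. Without control replicate 2, HSPA1B and DNAJB1 alone were called, and without control replicate 3, HSPA1A, HSPA1B, DNAJB1 and DNAJA4.

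**Figure D1:**
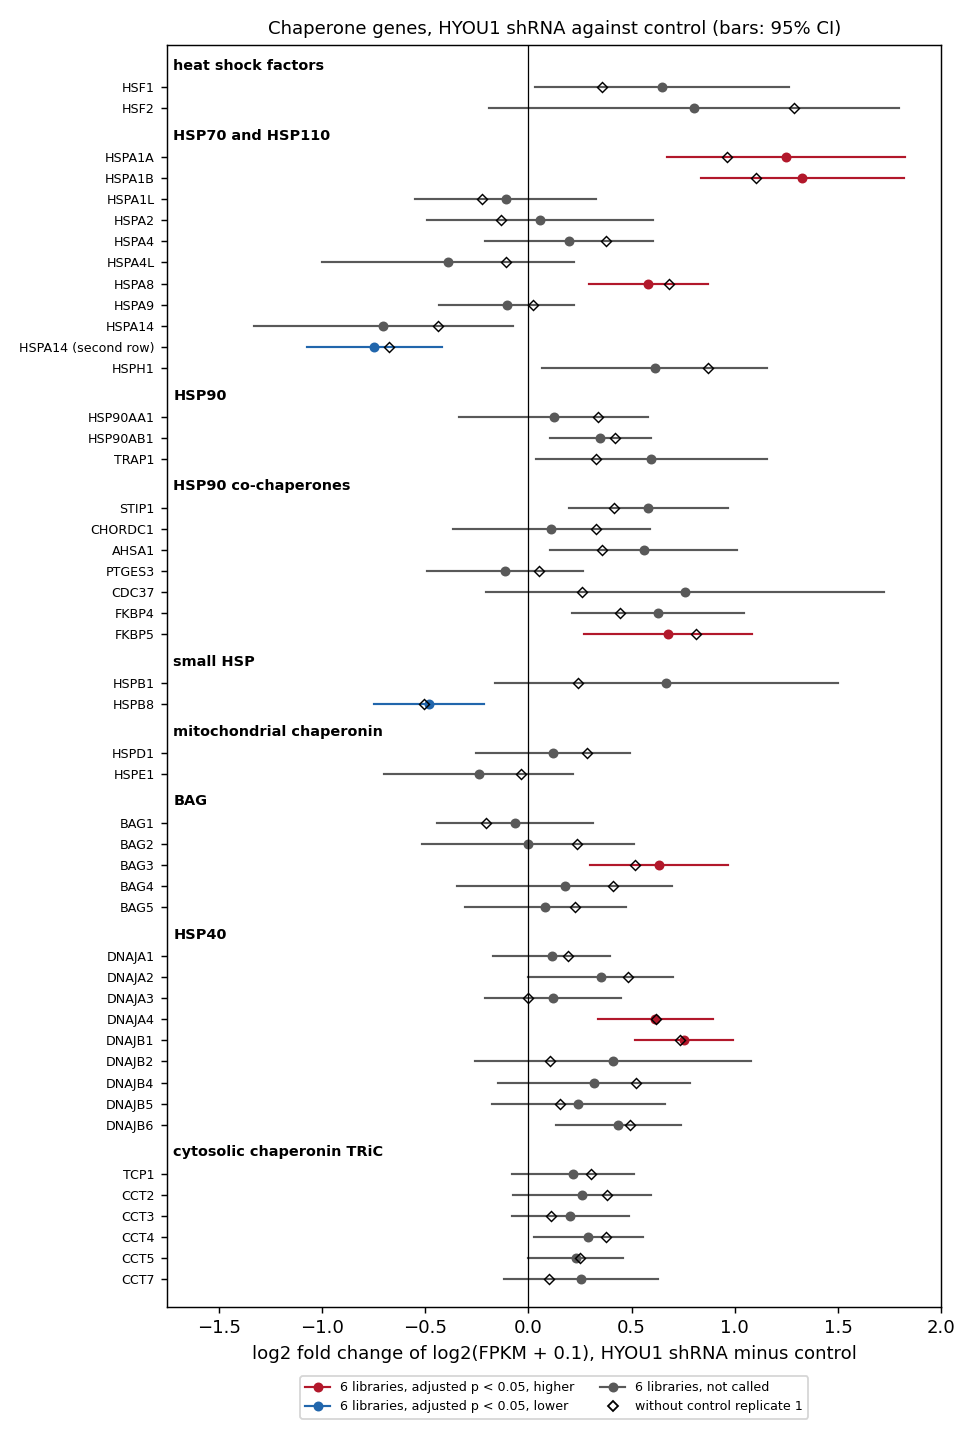
Log2 fold change of log2(FPKM + 0.1) between HYOU1 shRNA and control libraries for the 47 tested rows, grouped by class; dots with bars are estimates and 95% confidence intervals from all 6 libraries, coloured where called, and open diamonds are the estimates without control replicate 1. The 7 rows that rose have intervals above 0. When control replicate 1 is left out, 30 rows are called higher, as are 24.6% of all tested genes.

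The inducible HSP70 genes had the largest fold changes of the 47 rows with all 6 libraries, whereas without control replicate 1 HSF2 had the largest (1.29). HSPA1A (ENSG00000204389, chr6:31815464-31817946) was at 36.4, 62.3 and 68.8 FPKM in the controls and at 130.5, 125 and 128 FPKM in the knockdown libraries. HSPA1B (ENSG00000204388, chr6:31827735-31830255), its neighbour that encodes practically the same protein, was at 22.0, 35.8 and 34.8 FPKM in the controls and at 70.6, 76.4 and 80.6 FPKM with the hairpin. In both genes every knockdown library lay above every control, and control replicate 1 was the lowest. The log2 fold change was 1.25 ± 0.24 (SE) for HSPA1A (limma adjusted p = 0.0257) and 1.33 ± 0.20 for HSPA1B (limma adjusted p = 0.0143). Without control replicate 1 the values were 0.96 and 1.10, both called.

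The transcripts of these 2 genes share much sequence: 69.9% of the 100-base windows of HSPA1A occur in HSPA1B, so the division of fragments between them is uncertain. Their sum does not depend on that division. It would be too low if fragments matching both genes were left out, which could not be checked. It was 58.3, 98.1 and 104 FPKM in the controls and 201, 201 and 209 FPKM in the knockdown libraries, a log2 fold change of 1.28 ± 0.22 (adjusted p = 0.0196 in limma).

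HSPA8 encodes HSC70, the constitutive cytosolic HSP70, and was the most abundant gene of its class. Its control values were 436, 339.8 and 374 FPKM, and its knockdown values were 565, 595 and 553 FPKM, with no overlap. The log2 fold change was 0.58 ± 0.12 (limma adjusted p = 0.03), and 0.68 without control replicate 1. The inducible HSP70 level relative to HSPA8, as HSPA1A plus HSPA1B over HSPA8, was 0.134, 0.289 and 0.277 in the controls and 0.356, 0.338 and 0.378 in the knockdown libraries. This ratio was higher by 0.70 on the log2 scale with all libraries and by 0.34 without control replicate 1, and the groups did not overlap in either case. Its exact two-sided permutation p was 0.1, the smallest that 3 against 3 libraries allow, and 0.12 after Benjamini-Hochberg adjustment over the 6 ratios computed.

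The rest of the family had no common direction. HSPA6, a strictly heat-inducible HSP70 gene in human cells, was below the tested level, with 24 to 61 fragments per library, at 0.593, 0.923 and 0.776 FPKM in the controls and 1.44, 0.735 and 1.28 FPKM with the hairpin, and its groups overlapped. HSPA9, the HSP70 of the mitochondrial matrix, was at 79.8, 60.4 and 62.0 FPKM in the controls and at 63.4, 62.6 and 60.5 FPKM in the knockdown libraries. Its log2 fold change was -0.11 with a 95% confidence interval of -0.43 to 0.22. HSPA1L, HSPA2, HSPA4 and HSPA4L were not called either, at -0.11, 0.06, 0.20 and -0.39, and without control replicate 1 they were at -0.23, -0.13, 0.38 and -0.11, of which HSPA4 was called.

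HSPH1, the inducible HSP110 of the cytosol and the counterpart of HYOU1 there, was at 22.5, 13.8 and 12.4 FPKM in the controls and at 24.6, 24.5 and 23.1 FPKM in the knockdown libraries. The groups did not overlap, but control replicate 1 came close to the knockdown level. The log2 fold change was 0.61 ± 0.23 (limma adjusted p = 0.125) with all libraries and 0.87 (limma adjusted p = 7.41e-05) without that replicate. After GC correction it was 0.78 and called.

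The symbol HSPA14, which names an HSP70-like protein of the ribosome-associated complex, has 2 rows, of which 1 was called, and it fell. Row ENSG00000284024 (chr10:14838160-14847018) was at 5.60, 4.66 and 5.02 FPKM in the controls and at 3.12, 2.80 and 3.06 FPKM in the knockdown libraries, a log2 fold change of -0.75 ± 0.14 (adjusted p = 0.0218 in limma). Row ENSG00000187522 (chr10:14838164-14871741), which reaches further, overlaps it on the same strand and was not called. It was at 11.9, 7.23 and 6.39 against 5.96, 4.20 and 4.97 FPKM, where the log2 difference was -0.70 (limma adjusted p = 0.125). In both rows all knockdown libraries were below all controls, and since the rows overlap, they are not independent. Without control replicate 1 the log2 fold changes were -0.68 and -0.44, both called. Row ENSG00000284024 has a gene length of 4924 bases against 2644 for the other row, so part of it lies outside that row. Whether its fall concerns the mRNA of the HSP70-like protein was not tested.

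**Figure D2:**
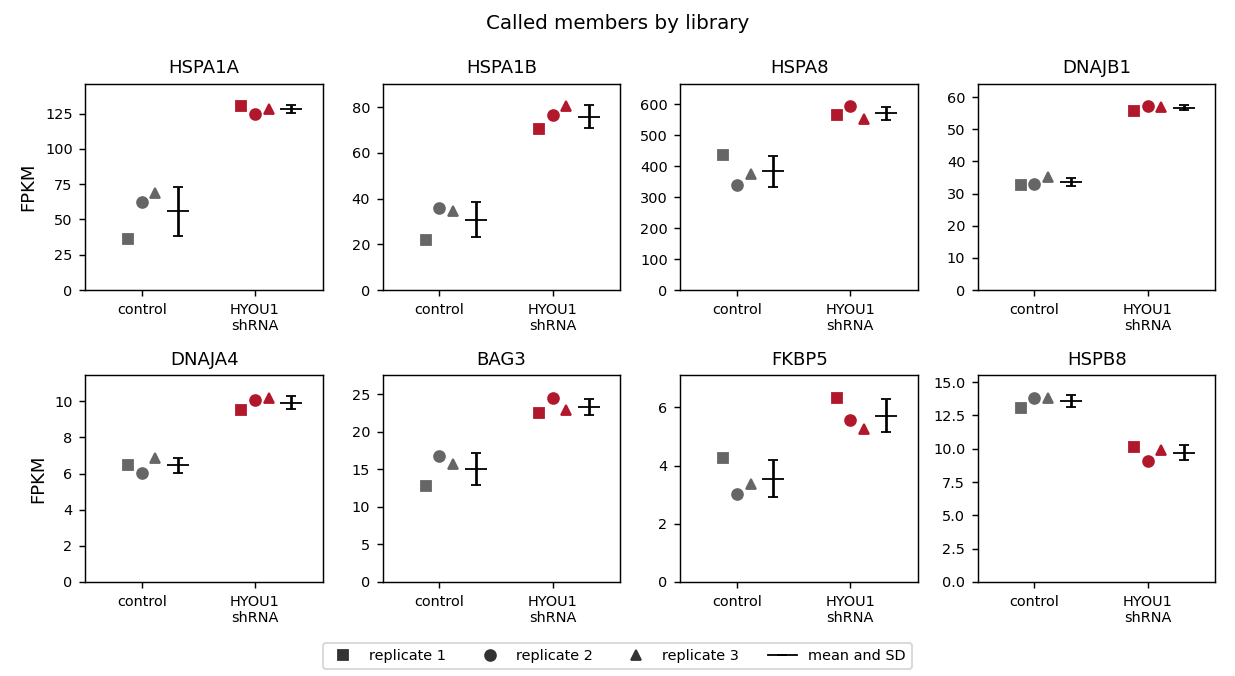
FPKM of 8 called genes in each library (grey, control; red, HYOU1 shRNA; marker shape, replicate), with the mean and SD of each group of 3 beside the points. In HSPA1A, HSPA1B, HSPA8, DNAJB1, DNAJA4, BAG3 and FKBP5 all knockdown libraries lie above all controls, and in HSPB8 all lie below.

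Among the J-domain proteins, which bring clients to HSP70, DNAJB1 (ENSG00000132002, chr19:14514770-14529770) had the smallest adjusted p of all 47 rows. This main stress-inducible HSP40 was at 32.6, 33.0 and 35.0 FPKM in the controls and at 55.7, 57.3 and 56.9 FPKM in the knockdown libraries. Its log2 fold change was 0.75 ± 0.10 (limma adjusted p = 0.00995), and it was 0.73 without control replicate 1, which here lay with the other controls. DNAJB1 overlaps TECR on the other strand, whose mean was 20.3 ± 4.54 FPKM in the controls and 18.2 ± 0.893 FPKM (SD, n = 3) in the knockdown libraries.

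DNAJA4 (ENSG00000140403, chr15:78264086-78282196), a type I J-domain protein, was at 6.48, 6.02 and 6.86 FPKM in the controls and at 9.53, 10.04 and 10.2 FPKM with the hairpin. Its log2 fold change was 0.61 ± 0.12 (limma adjusted p = 0.0238), or 0.62 without control replicate 1, and the groups were far apart relative to their scatter. It overlaps WDR61 on the other strand, which was at 5.21 ± 0.341 FPKM in the controls and 4.69 ± 0.107 FPKM (SD, n = 3) in the knockdown libraries. The most abundant J-domain gene, DNAJA1, was at 67.0, 55.8 and 58.1 FPKM in the controls and at 66.0, 68.6 and 60.8 FPKM with the hairpin, and its groups overlapped. All 9 J-domain genes had a log2 fold change above 0, from 0.11 to 0.75, where 52.7% of all tested genes were above 0. Only DNAJB1 and DNAJA4 were called. Without control replicate 1, where 24.6% of all tested genes rose, 5 were called higher: DNAJB1 and DNAJA4 with DNAJA2 (0.48), DNAJB4 (0.52) and DNAJB6 (0.49). After GC correction DNAJB6 was at 0.30 and not called (limma adjusted p = 0.216), and the other 4 were called. DNAJA3, a J protein of mitochondria, was at 0.12 with all libraries and at 0.00 without control replicate 1.

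BAG3 (ENSG00000151929, chr10:119651370-119677819), the BAG protein that links HSP70 to small heat shock proteins and selective autophagy, was at 12.7, 16.8 and 15.7 FPKM in the controls and at 22.5, 24.6 and 22.9 FPKM in the knockdown libraries. The groups did not overlap and the log2 fold change was 0.63 ± 0.14 (limma adjusted p = 0.0343), or 0.52 without control replicate 1. The other 4 BAG genes were not called, at -0.06 for BAG1, -0.00 for BAG2, 0.18 for BAG4 and 0.08 for BAG5. BAG2 (0.24) and BAG4 (0.41) were called higher when control replicate 1 was left out, as they were after GC correction (0.19 and 0.34), and BAG1 (-0.21) and BAG5 (0.23) were not. BAG1, the most abundant of the class, was at 18.1, 23.4 and 25.3 FPKM in the controls and at 19.7, 20.9 and 22.7 FPKM with the hairpin. Its knockdown values lay within the control range.

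The 3 HSP90 genes were not called with all libraries (2 of 3 were higher at an unadjusted p under 0.05 in limma, and voom called none). Without control replicate 1 all 3 rose, where 24.6% of all tested genes did. HSP90AB1, the constitutive cytosolic HSP90 and the most abundant of the 48 genes, was at 723, 614 and 636 FPKM in the controls and at 849, 829.9 and 826 FPKM in the knockdown libraries. The groups did not overlap, and the log2 fold change was 0.35 ± 0.10 (limma adjusted p = 0.0718), short of the threshold, or 0.42 without control replicate 1. The inducible HSP90AA1 was at 412, 264 and 260.5 FPKM in the controls and at 337, 342 and 317 FPKM with the hairpin. Here control replicate 1 was the highest of all 6 libraries and the other 2 controls were the lowest, so that the log2 fold change was 0.12 (limma adjusted p = 0.688) with it and 0.34 (limma adjusted p = 0.00272) without it. After GC correction HSP90AA1 was at 0.21 and not called (limma adjusted p = 0.194), whereas the other 2 HSP90 genes were called. TRAP1, the mitochondrial HSP90, was at 28.6, 47.9 and 52.0 FPKM in the controls and at 58.4, 64.4 and 65.8 FPKM in the knockdown libraries, with a log2 difference of 0.60 (limma adjusted p = 0.139), or 0.33 without control replicate 1. The ratio of HSP90AA1 to HSP90AB1 overlapped between the groups (exact permutation p = 0.2).

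Of the 7 HSP90 co-chaperone genes, FKBP5 (ENSG00000096060, chr6:35573585-35728583) was called. It encodes an immunophilin of steroid receptor complexes and was at 4.26, 3.03 and 3.37 FPKM in the controls and at 6.33, 5.56 and 5.24 FPKM in the knockdown libraries. The groups did not overlap, and the log2 fold change was 0.68 ± 0.17 (limma adjusted p = 0.0486), or 0.81 without control replicate 1. Its partner immunophilin FKBP4 and STIP1, which bridges HSP70 and HSP90, also had groups without overlap, with log2 fold changes of 0.63 (limma adjusted p = 0.0635) and 0.58 (limma adjusted p = 0.0634), or 0.44 and 0.41 without control replicate 1.

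AHSA1, the activator of the HSP90 ATPase, had a log2 fold change of 0.56, also without overlap, and of 0.35 without control replicate 1. CDC37, which delivers kinases to HSP90, was at 17.8 FPKM in control replicate 1, at 49.0 and 51.7 FPKM in the other controls and at 56.9, 60.8 and 63.3 FPKM with the hairpin. Its log2 fold change of 0.76 (limma adjusted p = 0.246) became 0.26 (limma adjusted p = 0.0139) without control replicate 1. After GC correction it was 0.46 and not called (limma adjusted p = 0.113). PTGES3, the p23 co-chaperone and the most abundant of the class, was at 264, 193.5 and 182 FPKM in the controls and at 195, 200.5 and 188 FPKM with the hairpin. Its log2 fold change was -0.11, with a 95% confidence interval of -0.49 to 0.26. Without control replicate 1, 6 of the 7 co-chaperone genes rose, all but PTGES3, where 24.6% of all tested genes rose. After GC correction 5 rose, all but CDC37 and PTGES3, against 20.4% of all tested genes.

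The small heat shock proteins, which hold unfolded proteins without ATP, were represented by 2 tested genes, of which 1 fell and none rose. HSPB8 (ENSG00000152137, chr12:119178642-119221131), the partner of BAG3, was at 13.0, 13.8 and 13.8 FPKM in the controls and at 10.1, 9.06 and 9.93 FPKM in the knockdown libraries. The controls agreed closely and lay above all knockdown libraries, with a log2 fold change of -0.48 ± 0.11 (adjusted p = 0.039 in limma), or -0.51 without control replicate 1. HSPB1, the most abundant of the class, was at 102, 245 and 254 FPKM in the controls and at 283, 294 and 307 FPKM with the hairpin. The distance of control replicate 1 from the other controls exceeded their distance from the knockdown libraries, and the log2 fold change was 0.67 (limma adjusted p = 0.238) with it and 0.24 (limma adjusted p = 0.0144) without it. After GC correction HSPB1 was at 0.22 and not called (limma adjusted p = 0.0949). CRYAB did not exceed 0.682 FPKM in any library.

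Neither gene of the mitochondrial chaperonin was called by limma or voom, and neither had an unadjusted p under 0.05. HSPD1, the HSP60 ring subunit of mitochondria, was at 233, 164 and 167 FPKM in the controls and at 204, 206 and 194 FPKM in the knockdown libraries, with a log2 difference of 0.12 (limma adjusted p = 0.629). Its lid HSPE1 was at 29.8, 20.2 and 18.8 FPKM in the controls and at 20.2, 18.4 and 18.4 FPKM with the hairpin, with a log2 difference of -0.24 (limma adjusted p = 0.426). The groups of each gene overlapped, and without control replicate 1 the log2 fold changes were 0.28, which was called, and -0.04. The 2 genes overlap on opposite strands, so fragments in the shared stretch could not be assigned without strand information. The ratio of HSPD1 to HSPE1 was 8.27 ± 0.542 in the controls and 10.6 ± 0.55 (SD, n = 3) in the knockdown libraries, without overlap (exact permutation p = 0.1).

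The 6 TRiC subunit genes among the 48 had log2 fold changes from 0.20 for CCT3 to 0.29 for CCT4 with all libraries, and from 0.10 for CCT7 to 0.38 for CCT2 without control replicate 1, and with all libraries none passed the threshold (1 of 6, CCT4, had an unadjusted p under 0.05 in limma, and voom called none). CCT3, the most abundant, was at 123, 143 and 157 FPKM in the controls and at 162 FPKM in each knockdown library. CCT4 was at 140.3, 117 and 119 FPKM in the controls and at 151, 156 and 152 FPKM with the hairpin. In both genes the groups did not overlap, and in CCT4 control replicate 1 lay nearest the knockdown libraries. TCP1, CCT2, CCT4 and CCT5 were called higher both without control replicate 1 and after GC correction, while CCT3 and CCT7 were called in neither. Of the other subunits of the ring, CCT8 was at 0.31 with all libraries and at 0.47, and called, without control replicate 1, whereas CCT6A was at -0.15 and -0.04 and called in neither case.

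The 2 heat shock factor genes were called by neither limma nor voom, with an unadjusted limma p under 0.05 for HSF1. HSF1, the main regulator of the response, was at 9.04, 16.5 and 16.9 FPKM in the controls and at 20.3, 20.1 and 23.9 FPKM in the knockdown libraries. The groups did not overlap, and the log2 fold change was 0.65 (limma adjusted p = 0.143), or 0.36 (limma adjusted p = 0.0112) without control replicate 1 and 0.19 (limma adjusted p = 0.067) after GC correction. HSF1 overlaps DGAT1 on the other strand, whose mean was 7.73 ± 2.55 FPKM in the controls and 11.4 ± 0.723 FPKM (SD, n = 3) in the knockdown libraries, and the part of those fragments in the HSF1 values was not tested. HSF2, which forms mixed trimers with HSF1, was at 6.55, 2.57 and 2.08 FPKM in the controls and at 6.57, 6.06 and 4.89 FPKM with the hairpin. Control replicate 1 was at the level of the knockdown libraries, and the log2 fold change was 0.80 (limma adjusted p = 0.235) with it, 1.29 (limma adjusted p = 0.000341) without it and 0.96 (limma adjusted p = 0.0239) after GC correction.

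Summed over all 49 rows, these transcripts came to 3328 ± 156 FPKM in the controls and 4198 ± 46 FPKM (SD, n = 3) in the knockdown libraries, or 1.15% to 1.21% and 1.48% to 1.56% of all FPKM. The sum is led by a few genes: the 4 most abundant genes, HSP90AB1, HSPA8, HSP90AA1 and either HSPB1 or, in control replicate 1, PTGES3, made up 45.9% to 52.5% of it. The HSP70 and HSP110 class summed to 627 ± 55.8 FPKM in the controls and 934 ± 17.5 FPKM (SD, n = 3) in the knockdown libraries, and HSP40 to 160.3 ± 6.61 and 204 ± 4.32 FPKM. TRiC summed to 603 ± 17.5 and 710.5 ± 14.5 FPKM, and BAG to 65.8 ± 1.57 and 73.8 ± 0.775 FPKM. These sums were not tested. The mitochondrial chaperonin, at 211 ± 44.7 and 220.3 ± 7.2 FPKM, was the 1 class whose sums overlapped between the groups.

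**Figure D3:**
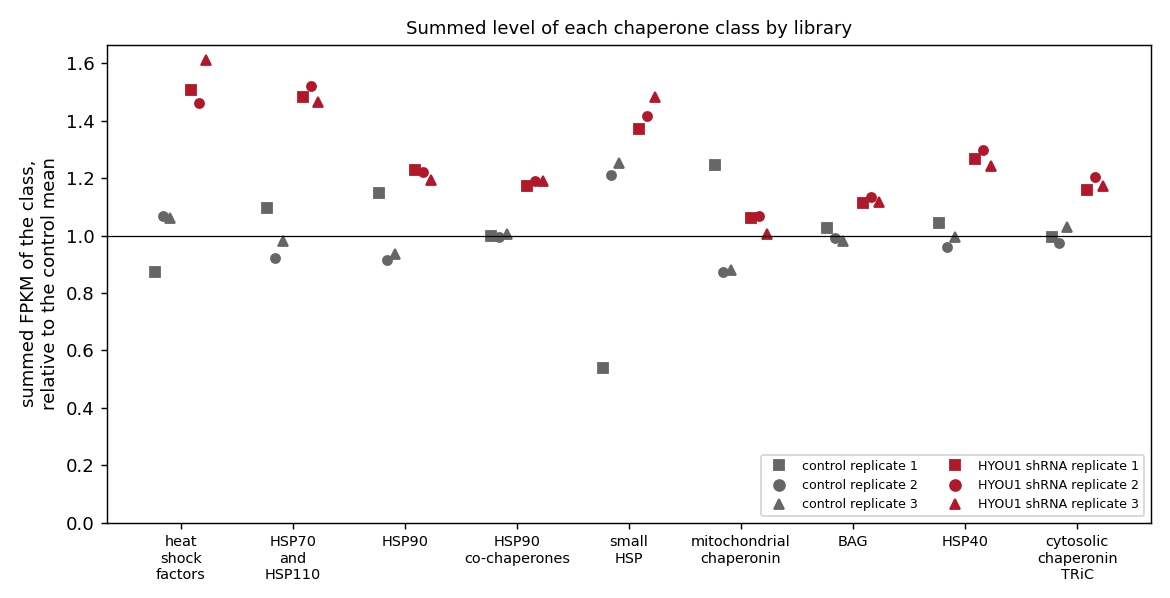
Summed FPKM of each of the 9 classes in every library, divided by the control mean of that class (grey, control; red, HYOU1 shRNA; marker shape, replicate; linear axis from 0). The knockdown libraries lie above all controls in every class except the mitochondrial chaperonin, and control replicate 1 is far below the other controls in the small HSP class.

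Among the ER relatives of these families the genes called with all libraries fell. HSPA5, the ER HSP70 known as BiP, was at 492, 418 and 430 FPKM in the controls and at 190, 187 and 190 FPKM in the knockdown libraries, with a log2 difference of -1.24 (limma adjusted p = 0.00324), or -1.16 without control replicate 1. Of 13 ER genes listed, all tested, 4 fell and none rose: HYOU1 (-4.38), HSPA5, DNAJB11 (-0.97) and DNAJC3 (-1.38), the last 2 being J-domain partners of BiP. Of all tested genes, 5.66% fell and 6.6% rose under the same rule. Without control replicate 1, 2 of the 13 rose and 7 fell, where 24.6% and 19.7% of all tested genes did. After GC correction 2 rose and 8 fell, against 20.4% and 20.2% of all tested genes. HSPA13 (0.41 and 0.33) and DNAJB9 (0.34 and 0.35) were the genes that rose in both settings. The median of the 13 was -0.46 with all libraries, and HYOU1 is the target of the hairpin. The ratio of cytosolic HSPA8 to ER HSPA5 was 0.887, 0.812 and 0.869 in the controls and 2.97, 3.18 and 2.92 in the knockdown libraries, a 3.53-fold difference (exact permutation p = 0.1).

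For the HSP90 pair the ratio of HSP90AB1 to HSP90B1, the ER HSP90, was 2.97 ± 0.594 in the controls and 5.36 ± 0.181 (SD, n = 3) in the knockdown libraries. Mitochondrial to cytosolic HSP70, as HSPA9 over HSPA8, was 0.175 ± 0.00867 in the controls and 0.109 ± 0.00355 (SD, n = 3) with the hairpin. Neither ratio overlapped between the groups, each with the smallest possible exact permutation p of 0.1.

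Of the other genes of the same systems, the ER genes included, 3 of 74 tested rose (4.05%) and 4 fell (5.41%), shares near the 6.6% and 5.66% of all tested genes, and their median log2 fold change was 0.02. Of 11 tested among further heat shock factors and heat-inducible genes, DEDD2 (1.31, limma adjusted p = 0.0358), a death-effector domain protein, and JMJD6 (0.73, limma adjusted p = 0.0328), a JmjC-domain hydroxylase, rose, and none fell. Of 8 tested among the other TRiC and prefoldin subunits, PFDN2, which hands nascent actin and tubulin to TRiC as part of prefoldin, rose (0.67, limma adjusted p = 0.0474). These 3 genes were at 0.96, 0.59 and 0.49 without control replicate 1. With all libraries no gene was called by limma in the lists of 15 further J proteins, 7 HSP70 partners, 10 HSP90 co-chaperones, 2 small heat shock proteins and 8 mitochondrial proteases and disaggregases that were tested. At an unadjusted p under 0.05, 3 of these 42 genes were higher and 5 lower, and voom called none of them. That level was passed by 3926 of all 12448 tested genes in either direction. Limma called 8 of the 42 higher and 10 lower without control replicate 1, where 24.6% and 19.7% of all tested genes rose and fell. After GC correction it called 7 and 7, against 20.4% and 20.2% of all tested genes. The most abundant genes of those lists were DNAJC8 at -0.28, BAG6 at 0.47, FKBP8 at 0.13, HSPB7 at -0.72 and LONP1 at -0.07. All 5 were called without control replicate 1, at -0.20, 0.22, -0.25, -0.96 and -0.42, so that FKBP8 changed sign.

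Control replicate 1 departed from the other controls along GC content in these genes as in the whole table. Of the 47 tested rows, it was the lowest of all 6 libraries in 19 and the highest in 13. Across the 47 rows, its log2 difference from the mean of the other controls had a Pearson correlation of -0.85 with the GC content of the longest transcript, and -0.71 across 12442 tested genes; these are descriptions, since all rows share the same libraries. The median difference was 0.49 for the 20 rows under 45% GC and -0.82 for the 10 rows above 55% GC. Set against control replicates 2 and 3 only, all knockdown libraries were higher in 33 of the 47 rows and lower in 5, where 35% and 30.8% of all tested genes were.

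**Figure D4:**
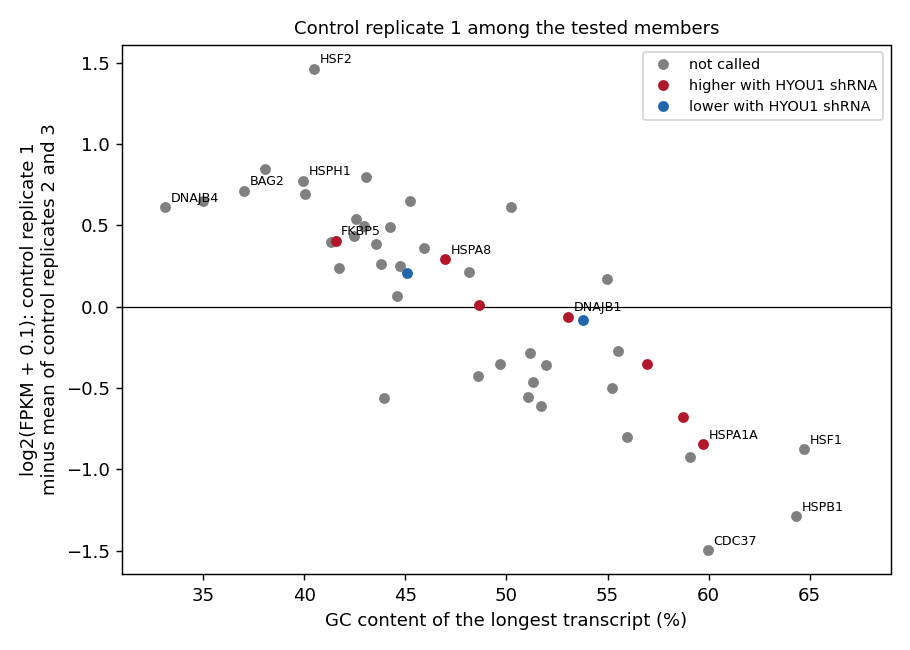
Difference in log2(FPKM + 0.1) between control replicate 1 and the mean of control replicates 2 and 3 for the 47 tested rows, against the GC content of each gene's longest transcript; colours mark the calls made with all 6 libraries. Most rows with low GC content lie above 0 and most with high GC content below 0, with medians of 0.49 under 45% GC and -0.82 above 55% GC.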

How the data were processed

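RNA of 6 libraries, 3 labelled shControl and 3 shHYOU1, was sequenced after poly(A) selection. The authors deposited 1 table of FPKM per gene, with gene length, per the file headers. For the aligner, the counter and the strand setting, the sources used here give nothing. All 58735 genes matched GENCODE 29 by identifier and position. FPKM times length gave whole fragments within 0.01 in every library, 16893091 to 18233240 per library, so that 3 fragments of a 1-kb transcript correspond to 0.16 to 0.176 FPKM. The library scaling of the deposited FPKM equalled median-of-ratios size factors.

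The 12448 genes whose mean reached 1 FPKM were tested in limma 3.58.1 (R 4.3.3; trended, robust variance) on log2(FPKM + 0.1), two-sided, with Benjamini-Hochberg adjustment over all of them; the script was tested on simulated data. GC correction removed, per library, a lowess trend (span 0.3) of the deviations from the gene mean on transcript GC content. Ratios within a library were compared by exact permutation. Values by library are given for each called gene, the most abundant gene of each class and a fixed set of well-known members; some others (HSPH1, TRAP1, CDC37, CCT4, and outside the 48 CCT6A, CCT8, HSPA13 and DNAJB9) were added after their values were seen. The members and lists were chosen with earlier results of these data known. Alternatives were other pseudocounts, filters and scalings, voom on recovered fragments, a replicate block and leaving out each library; GC correction combined with leaving out control replicate 1 was chosen after seeing the data.

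The table holds 92 pseudogenes named after one of the 48 symbols, and 3 of these had a mean of at least 1 FPKM. In 15 members a gene with such a mean overlaps on the other strand, so their fragments may be mixed.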

Additional observations from a re-analysis of the deposited data

How the results depend on the processing

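With all 6 libraries, 7 of the 47 tested chaperone rows rose and 2 fell, and 822 and 704 of all tested genes did. Leaving out 1 library gave 0 to 30 rows that rose and 0 to 3 that fell, 22 to 3062 and 27 to 2456 among all genes, and 0 to 17 and 2 to 20 among the other genes of the pathway (3 and 4 with all libraries). In each case the highest count came without control replicate 1, and the cause was not tested.

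GC correction gave 25 and 3 chaperone rows, 2535 and 2513 of all genes, and 15 and 17 other genes. GC correction without control replicate 1 gave 31 and 3 rows, 3112 and 2937 of all genes, and 19 and 23 other genes. With no filter on low values, 2 rows rose and 0 fell, 433 and 337 of all genes did, and 0 other genes rose. At an unadjusted p under 0.05, 17 rows were then higher and 3 lower, and 5397 of 30059 genes passed in either direction. A minimum mean of 5 FPKM left 525 and 413 of all genes and 1 row that fell, and 1 row fell with a minimum of 0.1 FPKM and under TPM scaling. FKBP5 and the called HSPA14 row lie below the 5 FPKM minimum. The other lost calls were FKBP5 and HSPB8 with the 0.1 FPKM minimum, HSPB8 under TPM scaling, and FKBP5 under quantile normalization and without a variance trend. With voom on recovered fragments, 8 rows rose, with FKBP4 added, and 2 fell. Both other pseudocounts gave 7 and 2.

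The replicate numbers shared by the groups are not said to mark anything common. Deviations of same-numbered libraries correlated at 0.12, -0.09 and 0.17, and control replicate 2 correlated best with knockdown replicate 3 (0.16), so the numbers were not taken to pair the samples. With the replicate block, 3 rows rose and 1 fell (HSPA1A, HSPA1B and DNAJB1, and HSPA14), 525 and 415 of all genes, and 1 other gene rose. The replicate block with GC correction gave 23 and 3 rows, 2282 and 2222 of all genes, and 13 and 18 other genes.

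Changes of sign concerned genes that were not called with all libraries. BAG2 was at 0.0366 under TPM scaling, 0.194 after GC correction, with or without the replicate block, and 0.19 with GC correction without control replicate 1. BAG5 was at -0.00265 under quantile normalization. HSPA9 was at 0.00645 and PTGES3 at 0.00609 after GC correction, with or without the block, and at 0.0121 and 0.0343 with GC correction without control replicate 1, where HSPA2 was at -0.137. Leaving out 1 library gave ranges of -0.206 to 0.0351 for BAG1, -0.125 to 0.236 for BAG2, -0.0373 to 0.225 for BAG5, -0.0141 to 0.329 for CHORDC1, -0.227 to 0.0167 for HSPA1L, -0.131 to 0.204 for HSPA2, -0.179 to 0.0221 for HSPA9, -0.217 to 0.0512 for PTGES3, -0.252 to 0.346 for FKBP8, -0.0214 to 0.409 for HSPA13 and -0.42 to 0.136 for LONP1. FKBP8 was at -0.397 after GC correction, with or without the block, and at -0.393 with GC correction without control replicate 1. The called genes had at least 253 fragments in every library, whereas HSPA6 and CRYAB, with as few as 24 and 2, were under the minimum mean for the test.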
